A study of Mus musculus with 25 samples.

Results

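The 5 libraries described here compare the zinc-knuckle mutant of SRSF7 with the wild-type protein in iCLIP with UV light and an anti-GFP antibody. They were chosen by their titles, which name the wild-type protein (WT, replicates 2, 3 and 4) or the protein labelled mutZn (replicates 3 and 4), from the 25 libraries of the series. All came from P19 cells, a mouse embryonal carcinoma line, irradiated at 254 nm and immunoprecipitated with anti-EGFP. The genotype of the WT group is labelled SRSF7-GFP OE and that of the mutant group SRSF7mutZn-GFP, so the tagged protein was expressed in both groups. Per the submitters, each tagged protein had 2 to 3 biological replicates. The antibody reads the tagged protein and not the cells' own SRSF7. Besides these, 4 libraries of the same antibody serve as background: 1 WT and 1 mutZn library without UV, and 2 UV libraries of another variant, labelled SRSF7D27aa-GFP (D27aa).

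SRSF7 is a serine/arginine-rich protein that binds pre-mRNA and mRNA and takes part in splicing, in the choice of polyadenylation sites and in mRNA export. It contacts RNA through an RNA recognition motif and a CCHC-type zinc knuckle that lies between that motif and the RS domain. The zinc knuckle sets SRSF7 apart from its close relative SRSF3, and it is the module named in the label of the mutant. In iCLIP, UV light links a protein to the RNA it touches and the pair is immunoprecipitated. The peptide left on the RNA often halts reverse transcription next to the site of the link, so the end of a cDNA marks the site. Each distinct cDNA is counted as 1 crosslink event, and a position is 1 nucleotide of 1 strand with at least 1 event.

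The WT libraries held 221746, 1099389 and 3952779 events (replicates 2, 3 and 4), and the mutZn libraries 11782376 and 6436730 (replicates 3 and 4). Every mutZn library was therefore deeper than every WT library, and depth and genotype cannot be told apart. Thinning to equal event numbers does not part them either, since measures below still followed original depth among the thinned WT libraries. WT 3, WT 4 and mutZn 4 came from 1 sequencing run, WT 2 from another, and mutZn 3 from a further run that also held both no-UV libraries. WT 3 and WT 4 also carry the same replicate number in their file headers, so their separate origin is known from the titles alone. That number is 3, as for mutZn 4, while the header of mutZn 3 carries 1. Replicate numbers here are those of the titles. WT 4 and mutZn 4 are the run-matched pair and are shown beside the groups as mutZn 4 over WT 4 in CPM, the number of events per 1000000 events of a library. The background libraries were shallow, with 89070 events for WT and 66690 for mutZn without UV, and 376870 and 388768 for D27aa. Coordinates are those of mouse build mm9, and no gene is assigned to a region because no annotation of that build was used here.

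Differences between the genotypes were found at every size examined, and the smaller the unit the more of them were lower in mutZn. Events were summed per strand in bins of 500 and 100 nt and at single nucleotides. Each set went through a negative binomial quasi-likelihood test, adjusted by Benjamini-Hochberg at 0.05, and a call below is a feature that passed it. In 500 nt bins 3388 were higher in mutZn and 4744 lower (3.57% and 5.00% of 94826 tested, 8.58% in all). In 100 nt bins 1802 were higher and 4137 lower (4.16% and 9.54% of 43350 tested, 13.7% in all). At single nucleotides 120 were higher and 976 lower (1.81% and 14.7% of 6632 tested, 16.5% in all). The share of calls that were lower in mutZn was thus 58.3%, 69.7% and 89.1%, against 49.8% in 5000 nt windows, where 5.71% were higher and 5.66% lower (11.4% in all). The median log2 fold change over all features tested was -0.07 in 500 nt bins, -0.26 in 100 nt bins and -0.57 at single nucleotides. Without WT 2 these medians were 0.013, -0.10 and -0.37, and without WT 3 0.017, -0.08 and -0.25, so the sign in 500 nt bins rests on these libraries. Without mutZn 3 they were -0.14, -0.39 and -0.87, and without mutZn 4 -0.15, -0.38 and -0.86. The counts depended on the libraries that entered: without mutZn 3 the test called 302 bins of 500 nt, 104 bins of 100 nt and 60 positions, and without mutZn 4 it called 900, 481 and 82. Without WT 4 it called 1226 of 77726, 1553 of 33105 and 531 of 5199 tested, and without WT 3 4607 of 111077, 3251 of 49955 and 344 of 6926. Fewer features were tested without mutZn 3 (42416, 16287 and 3341) and without mutZn 4 (42328, 16398 and 3347). Lower calls outnumbered higher calls at each size in each of these. Tested features had at least 15 events in all and reached the level of 10 events at the median library total in at least 2 libraries. For WT 2, 1 event (4.51 CPM) reached this level, so few events in a shallow WT library could bring a feature in. With a filter that weighted the pooled groups equally, the lower shares were 57.7%, 67.0% and 92.4%. The sets of the sizes are nested rather than independent.

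**Figure D1:**
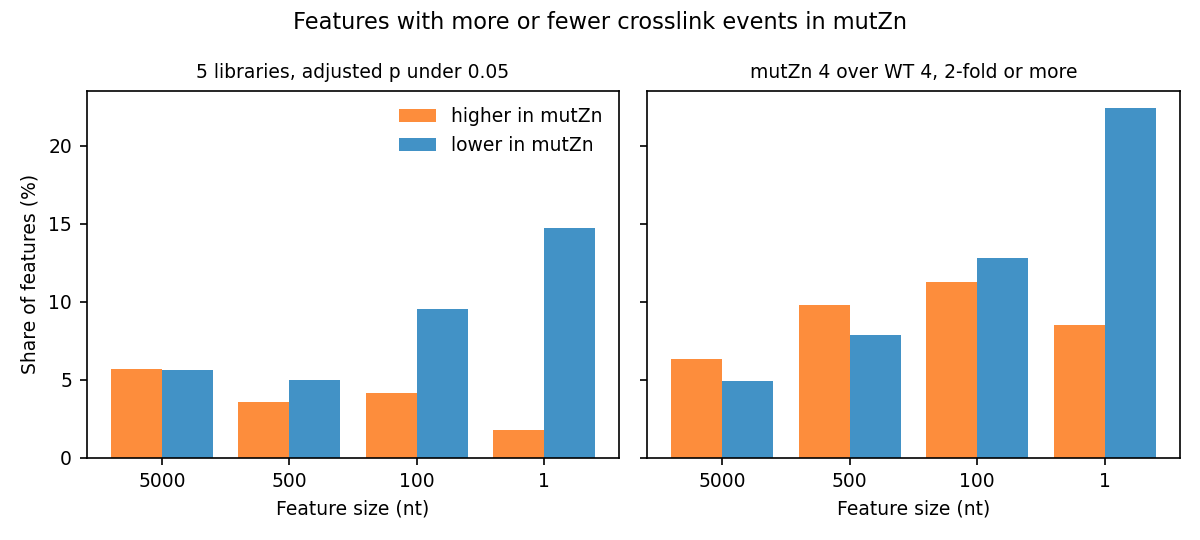
Share of features (percent) higher or lower in mutZn by feature size in nt, over the 5 libraries at adjusted p under 0.05 (left) and in the run-matched pair at 2-fold or more (right). Lower features go from 5.66% at 5000 nt to 14.7% at 1 nt on the left and from 4.91% to 22.4% on the right.

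The run-matched pair, read alone, gave the same order of sizes, but in 500 nt bins, unlike the groups, more features were higher than lower in mutZn. Among features with at least 20 events in the pair, mutZn 4 was 2-fold or more above WT 4 in 6.36% of 96038 windows of 5000 nt and 2-fold or more below in 4.91%. In 500 nt bins the shares were 9.81% above and 7.86% below (103783 bins). In 100 nt bins the shares were 11.2% above and 12.8% below (45296 bins), and at single nucleotides 8.50% above and 22.4% below (6437 positions). These have no replicate check within the pair, so they were read in the other replicate-3 libraries, mutZn 3 over WT 3, which the choice did not use. Of the 10178 bins of 500 nt that were higher in the pair, 72.6% were also higher there (47.5% of all bins read), and of the 8155 lower bins 79.0% were also lower (52.5% of all). Of the 547 higher and 1444 lower positions, 70.2% and 92.1% had the same direction. Over all positions with enough events 68.9% were lower in mutZn 3 than in WT 3, so a part of that last share is the general level. The mutZn 3 library came from another run than WT 3, which was not matched in this second reading.

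The called features were also read in the run-matched pair, whose libraries are among those that made the calls, so the shared direction is no separate evidence. All 3388 bins of 500 nt called higher were higher in mutZn 4 than in WT 4, with a median log2 ratio of 1.44, and 4726 of the 4744 called lower were lower, with a median of -1.36. In the same bins the median log2 ratio of WT 4 over WT 3 was -0.08 and -0.11. These ratios had 0.5 events added to each count, which weighs most where a library had few events. Of the 976 positions called lower, 963 were lower in the pair, with a median of -2.01, while WT 4 over WT 3 had a median of -0.42. Both mutZn libraries lay above all WT libraries in 85.2% of the bins called higher (15.3% of all tested bins), and below all of them in 64.6% of those called lower (15.5% of all tested). In 100 nt bins the shares were 87.9% of the higher calls (13.3% of all tested) and 64.6% of the lower calls (21.3%). At single nucleotides they were 87.5% (8.67%) and 61.5% (27.6%). 

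Changes at small scale mostly lay within changes of the wider unit. Of the 8132 called 500 nt bins, 5991 lay in a 5000 nt window called in the same direction, 3 in one called in the opposite direction and 2138 in one not called. Of the 5939 called 100 nt bins, 4373 lay in a 500 nt bin called in the same direction and 1566 in one not called. Of the 1096 called positions, 922 lay in a 500 nt bin called in the same direction and 174 in one not called. No called 100 nt bin or position lay in a 500 nt bin called the other way. A wide unit holds the events of the narrow units in it, so this agreement is partly built in. The share over all tested narrow units was not taken. Where 2 neighbouring 500 nt bins were both called, 1656 of 1664 pairs had the same direction (99.5%, against 66.6% of all tested neighbours).

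Bins higher in mutZn more often had a called neighbour than bins that were lower. Of the 3388 higher bins 58.3% had no called neighbour of their direction, and of the 4744 lower bins 75.9% had none. Runs of 5 or more neighbouring called bins numbered 47 for higher bins (401 bins) and 32 for lower bins (244 bins). The longest higher run covered 46 bins, chr12:110814001-110837000 on the plus strand, with 10, 281 and 944 events in WT 2, 3 and 4 and 9426 and 5109 in mutZn 3 and 4. The longest lower run covered 19 bins, chr17:80671501-80681000 on the minus strand, with 980, 1227 and 1193 CPM in WT and 474 and 464 in mutZn. The values of both runs are those that gave the calls.

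Long stretches of signal showed where such runs lay. A stretch is at least 50000 nt of 1 strand in which 500 nt bins with at least 3 events, summed over libraries, follow each other with gaps of at most 2000 nt. Of 3266 stretches, 875 were higher in mutZn and 533 lower (26.8% and 16.3%, 43.1% in all, the same test). A stretch joins many events, so smaller changes pass than in bins, and in the run-matched pair 2.11% of stretches were 2-fold or more higher and 1.90% lower. Without WT 4 the calls fell to 511, without mutZn 4 to 553 and without mutZn 3 to 574. Both mutZn libraries lay above all WT libraries in 33.8% of all stretches and below all of them in 14.5%. In stretches with at least 5 tested bins, the 539 higher stretches held 9.84% higher and 0.575% lower bins. The 365 lower stretches held 0.274% higher and 14.5% lower bins, and the 1039 stretches that were not called held 1.43% and 2.67%.

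The stretch chr12:110779001-110988500 on the plus strand (209500 nt) had the most events of those called higher. It held 302, 1605 and 1615 CPM in WT 2, 3 and 4 and 5005 and 4929 in mutZn 3 and 4. Both mutZn libraries lay above all WT libraries, and WT 2, with 67 events there, lay far below the other WT libraries. The group means were 1174 ± 755 (SD, n = 3) and 4967 ± 53.7 (SD, n = 2), which the quasi-likelihood test fitted as a log2 change of 1.79 ± 0.18 (SE, adjusted p = 5.2e-08). The log2 ratio in the run-matched pair was 1.61. The change ran along the whole stretch, where 264 of 347 tested bins were higher and 0 lower. D27aa had 2547 and 2711 CPM, and the libraries without UV 2562 (WT, 228 events) and 3856 (mutZn, 257 events), so the library without UV also held more of this stretch than WT with UV. RNA level and binding cannot be told apart in these values, here or below.

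The stretch chr15:65897501-66118500 on the minus strand (221000 nt) was another with many events. It held 411, 407 and 449 CPM in WT and 1412 and 1447 in mutZn, with no overlap and little spread within a group. The log2 fold change was 1.72 ± 0.07 (SE, adjusted p = 4.7e-14 by the quasi-likelihood test), 1.69 in the run-matched pair. All of its tested bins had a positive log2 fold change, and 131 of 218 were called higher. D27aa had 714 and 850, and the libraries without UV 1045 for WT (93 events) and 1380 for mutZn (92 events). The minus-strand stretch chr6:97328001-97568000 changed less, with 975, 718 and 716 CPM in WT against 1353 and 1359 in mutZn. Of its 210 tested bins 36 were called higher and 0 lower, at a log2 fold change of 0.86 ± 0.08 (SE).

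Of the 6 lower stretches with the most events, chr17:80617501-80690000 on the minus strand (72500 nt) had the largest change. It held 2609, 2988 and 3047 CPM in WT and 1246 and 1249 in mutZn, with no overlap. The log2 fold change was -1.25 ± 0.06 (SE, adjusted p = 3.0e-12 by the quasi-likelihood test) and -1.29 in the run-matched pair. Of 105 tested bins 82 were lower and none had a positive log2 fold change. Here D27aa, with 1546 and 1359 CPM, and the libraries without UV, with 1708 for WT (152 events) and 1486 for mutZn (99 events), lay below WT with UV and nearer to mutZn.

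This stretch is part of a wider block on both strands of chromosome 17. The block was taken, after the values were seen, as the unbroken series of 10 kb steps around the longest lower run in which mutZn 4 was below WT 4 on at least 1 strand with 20 or more events, which gave chr17:80540001-80700000 (160000 nt). On the plus strand it held 546, 655 and 682 CPM in WT and 246 and 241 in mutZn. On the minus strand it held 18481, 14018 and 12227 in WT and 5525 and 5123 in mutZn. The run-matched log2 ratios were -1.50 and -1.26. Most of the minus-strand sum lay in 1 step, chr17:80600001-80610000, with 8904 of the 12227 CPM of WT 4. The minus-strand step chr17:80570001-80580000 went the other way, with 0, 5 and 15 events in WT and 186 and 98 in mutZn. Of 29 steps with enough events, 22 had both mutZn libraries below all WT libraries, a count the choice of the block partly fixes. Of 7 steps with enough events nearby, outside the block, 1 had both mutZn libraries below all WT libraries. In 6 of them every library had events, and the log2 ratio ran from -1.35 to 0.34 with a median of 0.09. The other had 28 events in WT 4 and 7 in mutZn 4. D27aa lay between the groups or within WT, at 483 and 438 on the plus and 12620 and 11902 on the minus strand.

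The core of this block was chr17:80601501-80607000 on the minus strand, 11 neighbouring lower bins. It had 3344, 11127 and 32607 events in WT 2, 3 and 4 and 43200 and 20988 in mutZn 3 and 4. In CPM these were 15096, 10130 and 8256 against 3669 and 3263, and D27aa had 10679 and 10082. Both mutZn libraries were below all WT libraries, and the WT libraries themselves spread widely, in the reverse order of their depth. The level without UV was 7281 CPM for WT and 6107 for mutZn, between the UV libraries of the genotypes.

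The other long lower runs named lay outside chromosome 17. The plus-strand run chr1:63349001-63357500 (17 bins) had 49.7, 118 and 133 CPM in WT and 6.96 and 6.53 in mutZn, with a median log2 fold change of -4.17. The plus-strand run chr15:28573001-28581500 (17 bins) had 393, 439 and 470 in WT and 108 and 103 in mutZn. D27aa lay between the genotypes in both, at 29.2 and 36.0 in the first and 181 and 131 in the second.

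Not all of the stretches with most events differed. The minus-strand stretch chr7:67084501-67157500 held 3250, 2983 and 3003 CPM in WT and 3292 and 3354 in mutZn. Its log2 fold change was 0.12 ± 0.06 (SE, adjusted p = 0.15 by the quasi-likelihood test), and 9 of 80 bins were called higher and 1 lower. Without WT 2 the same difference passed the test (0.15), and it turned to -0.61 when each position was counted once. The minus-strand stretch chr2:68042501-68311000 had 659, 915 and 947 against 914 and 921, and a log2 change of 0.02 ± 0.07 (SE). Both mutZn values lay among those of WT there.

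At 500 nt, the bins with the largest rise in mutZn, by the rule given under the processing, had almost no WT events. In chr7:121183501-121184000 on the plus strand no WT library had an event, and mutZn 3 and 4 had 71 and 42. In chr15:75734001-75734500 on the minus strand no WT library had one either, and mutZn had 65 and 43. Against a floor of 3 events over the pooled WT libraries, mutZn was at least 11-fold and at least 10.7-fold higher. Both were called by the quasi-likelihood test (adjusted p = 1.7e-08 and 4.2e-08). They reached the level to be tested through mutZn alone and were named by these same values, so the p-values are no separate evidence. Within 2500 nt of the centre of the chromosome 15 bin the events were 0, 0 and 2 in WT and 325 and 192 in mutZn, so the rise was that of a region and not of 1 bin. The D27aa libraries had 21 and 16 events there and were far shallower, which puts them above mutZn in CPM (55.8 and 41.2 against 27.6 and 29.9). The bin lies in the stretch chr15:75707001-75760500, which was higher by 1.59 ± 0.10 (log2, SE).

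Further rises had 1 to 3 WT events. The plus-strand bin chrX:111643501-111644000 had 0, 1 and 1 events in WT and 116 and 63 in mutZn, a pooled ratio of 25.9 with a 95% counting interval of 7.07 to 216. The bin chrX:111669501-111670000, on the same strand, had 0, 0 and 1 against 68 and 41 (ratio 31.5, interval 5.54 to 1257). The minus-strand bin chr15:65922501-65923000 (0, 0 and 2 against 67 and 42) and the plus-strand bin chr12:110957001-110957500 (0, 0 and 3 against 100 and 50) lay in the higher stretches described above. Intervals and floors here cover counting error only. The rule for naming took only features whose groups do not overlap, and these bins reached the level to be tested through mutZn alone.

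The largest fall at 500 nt was in chr12:12261001-12261500 on the plus strand. WT 2, 3 and 4 had 12, 52 and 204 events, which are 54.2, 47.3 and 51.7 in CPM, and mutZn had 1 and 0. WT averaged 51.1 ± 3.45 CPM (SD, n = 3), with little spread over the 3 libraries, while mutZn was at 0.042 ± 0.060 (SD, n = 2). The pooled ratio of WT over mutZn was 926, with a 95% counting interval of 165 to 36708 and an adjusted p of 4.1e-65 by the quasi-likelihood test. The bin reached the level to be tested through WT alone and was named by these same values, so the p-value is no separate evidence. No event was found in this bin in either D27aa library or in either library without UV. Within 2500 nt the counts were 26, 113 and 416 against 5 and 0. The surrounding stretch, chr12:12260501-12330000, had a log2 fold change of -3.20 ± 0.10 (SE).

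**Figure D2:**
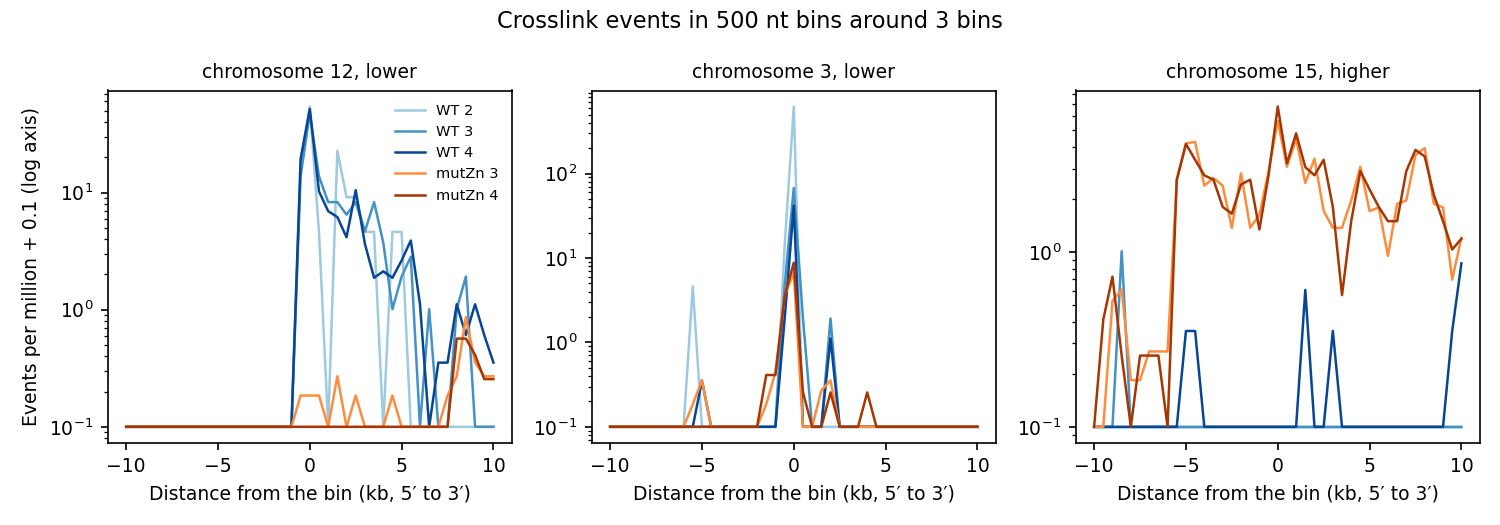
CPM plus 0.1 (log axis) in 500 nt bins by distance in kb, 5′ to 3′, from 3 named bins, 1 line per library. On chromosome 12 the 3 WT lines peak together at the bin and mutZn stays near 0, on chromosome 3 the bin is the highest point of all 5 lines, and on chromosome 15 the mutZn lines lie above WT from 5 kb before the bin to 5 kb after it.

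Another 4 of the 6 named falls at 500 nt had another form. Nearly all their events sat in a single 100 nt bin, WT 2 was far above WT 3 and WT 4 in CPM, and event numbers were similar in libraries whose totals differed widely. The minus-strand bin chr3:78358001-78358500 had 138, 74 and 164 events in WT and 78 and 56 in mutZn, which are 623, 67.4 and 41.5 in CPM against 6.62 and 8.71. D27aa had 136 and 178 events there, and WT without UV 11. The log2 fold change was -4.47 ± 0.29 (SE) over the groups, but -2.25 in the run-matched pair. Without mutZn 3 the adjusted p of the quasi-likelihood test was 0.091.

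The same form was seen in the minus-strand bins chr6:97599501-97600000, chr2:46691501-46692000 and chr4:42092501-42093000. Their events were 134, 146 and 265 against 155 and 78, 36, 17 and 45 against 8 and 21, and 86, 42 and 93 against 69 and 45. Their group log2 fold changes were -4.03, -3.98 and -3.73, and the run-matched values were -2.47, -1.80 and -1.75. The WT mean depended on WT 2, and its SD exceeded the mean. Without mutZn 3 these calls were lost, with adjusted p-values of 0.053, 0.17 and 0.14 by the quasi-likelihood test. The call at chr4:42092501-42093000 was also lost without mutZn 4 (0.068), and 1 further bin of the rule is not reported here.

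At 100 nt, the largest rises were named by the same rule, and several lay in regions that were higher as a whole. The minus-strand bin chr9:69350701-69350800 had 0, 0 and 4 events in WT and 113 and 62 in mutZn, a log2 change of 3.67 ± 0.82 (SE, quasi-likelihood test, adjusted p = 6.7e-09), and 3.25 in the run-matched pair. It had no event in either D27aa library or in either library without UV. The minus-strand bin chr2:168574901-168575000 had 0, 0 and 2 against 82 and 43, and likewise none in the 4 background libraries. The bin chr3:128919901-128920000, also on the minus strand, had 0, 2 and 3 against 137 and 66. It lay in a region that was higher as a whole, with 4, 15 and 74 events within 2500 nt in WT and 1421 and 744 in mutZn. In the bins given so far at 100 nt, no WT library reached the level to be tested. They were tested through mutZn alone and named by these same values, so the p-value is no separate evidence. The remaining named rises, chr12:110786501-110786600 on the plus strand and chr6:97474301-97474400 and chr6:122290501-122290600 on the minus strand, had 4 to 5 WT events in all and log2 fold changes of 3.66, 3.59 and 3.56. The bins chr12:110786501-110786600 and chr6:97474301-97474400 lay in the higher stretches described above. The named falls were those of the 500 nt bins, with 1 more on the plus strand at chr11:19314401-19314500 (54, 40 and 68 against 40 and 33).

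At single nucleotides the named rises again set near-empty WT positions against well-filled mutZn positions. The position chr12:110787699 on the plus strand had 0, 1 and 1 events in WT and 69 and 39 in mutZn, a pooled ratio of 15.6 with a 95% counting interval of 4.22 to 131 (adjusted p = 1.7e-04 by the quasi-likelihood test). The position chr9:69350784 on the minus strand had 0, 0 and 3 against 82 and 37 (ratio 11.5, interval 3.83 to 56.5) and held most events of the chromosome 9 bin above. No WT library reached the level to be tested at either position, and both were named by these same values. The position chr19:5797908 on the minus strand had 0, 0 and 10 against 84 and 55. A neighbour 27 nt away, chr19:5797881, was the second most used mutZn position by mean level, with 1, 28 and 62 events in WT and 291 and 159 in mutZn. The most used mutZn position, chr16:57391793 on the minus strand, was also among the 5 most used of WT, with 26, 185 and 240 events in WT and 248 and 206 in mutZn, and was not called (adjusted p = 0.26 by the quasi-likelihood test). The calls at chr12:110787699, chrX:133124939 and chr17:23685775 were lost without WT 4, and that at chr19:5797908 without WT 3.

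The named falls at single nucleotides had 2 forms. At chr13:25799411 on the minus strand WT had 1, 18 and 48 events and mutZn 26 and 9, a log2 fold change of -2.78 and a run-matched log2 ratio of -3.12. The plus-strand position chr16:91248999 (1, 16 and 46 against 28 and 9) and the minus-strand position chr17:76438988 (1, 19 and 75 against 50 and 9) were alike, and all had at most 3 events in each D27aa library. These falls were as large in the run-matched pair as in the groups, though each call was lost without either mutZn library. In the other form, chr9:123438558 on the minus strand, the most used WT position by mean level, had 110, 29 and 64 events in WT and 133 and 58 in mutZn. Its log2 fold change was -4.15 over the groups and -0.85 in the run-matched pair. Without WT 2 it was -1.03, with an adjusted p of 0.21 by the quasi-likelihood test. The call at chr17:80604034 (48, 6 and 15 against 28 and 14) was likewise lost without WT 2, at a log2 fold change of -0.88.

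The fall at single nucleotides was therefore set beside the use of the same positions in D27aa, a grouping added after the named positions were seen. Positions with 50 or more events in the D27aa libraries numbered 121. They held 9047, 1679 and 813 CPM in WT 2, 3 and 4 and 551 and 520 in mutZn 3 and 4. In events per position this was 16.6, 15.2 and 26.5 against 53.6 and 27.7, a 3.52-fold range over libraries whose totals spanned a 53.2-fold range. From positions with 1 D27aa event to those with 50 or more, the log2 ratio of mutZn 4 over WT 4 went from -0.16 to -0.64, with its lowest value, -0.70, at 10 to 19 events. Over the same positions that of WT 4 over WT 3, within 1 genotype and 1 run, went from -0.12 to -1.05, in the direction of their depth. In contrast mutZn 3 over mutZn 4 stayed between 0.02 and 0.16. WT 2 shares its run with 1 D27aa library, and WT 3, WT 4 and mutZn 4 share theirs with the other. The part of these positions in the excess of lower calls at 1 nt was not tested.

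**Figure D3:**
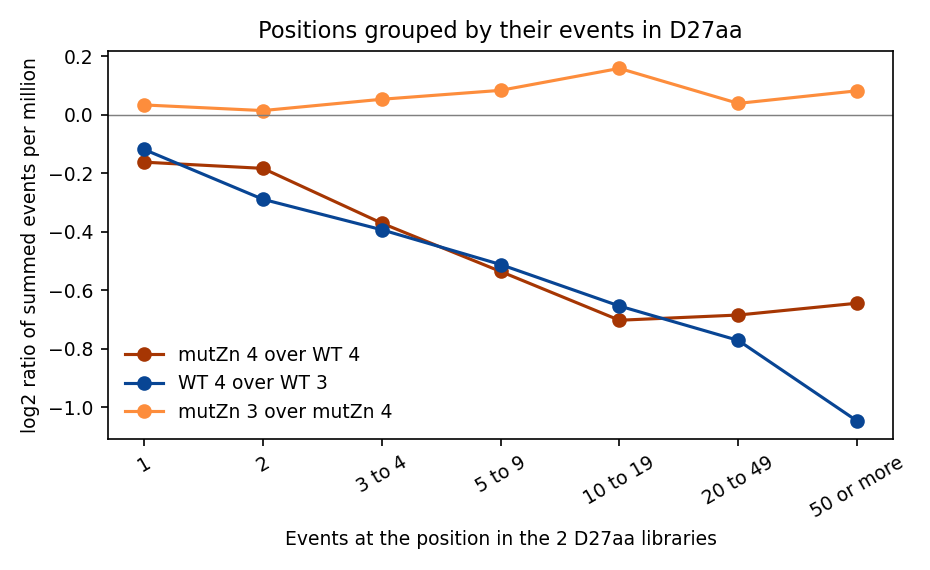
log2 ratio of summed CPM (vertical axis) for positions grouped by their number of events in the 2 D27aa libraries (horizontal axis), 1 line per pair of libraries. The lines of mutZn 4 over WT 4 and WT 4 over WT 3 lie close up to 10 to 19 events, at -0.70 and -0.65, and end at -0.64 and -1.05, and mutZn 3 over mutZn 4 stays between 0.02 and 0.16.

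In 500 nt bins grouped the same way the shift was smaller. The log2 ratio of mutZn 4 over WT 4 was 0.04 in bins with 1 D27aa event, -0.05 in those with 5 to 9 and -0.22 in those with 100 or more. That of WT 4 over WT 3 was 0.03, 0.01 and -0.33.

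Events were less clustered in both mutZn libraries than in any WT library at equal depth, and among the WT libraries the share fell with original depth. Each library was thinned at random to the 221521 events of WT 2, and a cluster was taken as at least 3 positions of 1 strand with gaps of at most 15 nt. Clusters held 10.2%, 7.71% and 6.62% of events in WT 2, 3 and 4 and 5.40% and 5.40% in mutZn 3 and 4. The difference of the means was -2.78 percentage points, with no overlap (8.18 ± 1.85, SD, n = 3, against 5.40 ± 0.002, SD, n = 2; exact two-sided permutation p = 0.20, the smallest this design allows). At the depth of WT 3 the shares were 17.7% and 16.4% for WT 3 and 4 and 14.4% and 14.1% for mutZn. The WT libraries spread over 3.61 points among themselves, and the step from WT 4 to mutZn 4 in the shared run was 1.22 points.

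The most used positions gave the same order. The top 1% of positions held 4.81%, 3.22% and 2.64% of events in WT and 2.29% and 2.33% in mutZn, a difference of -1.25 points (the same exact permutation p = 0.20). Equal depth put 208077, 214442 and 216903 distinct positions in WT and 218421 and 218284 in mutZn. In 500 nt bins the occupied number was 154470, 158665 and 160395 against 162202 and 162842. In 5000 nt windows the order turned, with 89033, 85256 and 84674 against 83709 and 84485 (a difference of -2224), WT 2 being farthest from mutZn. At the depth of WT 3 the windows numbered 167372 and 162503 in WT 3 and 4 and 156116 and 159710 in mutZn. At 66644 events the groups overlapped, with 41265, 40846 and 40919 against 40874 and 41066. The larger number of small bins in mutZn thus held at each depth, and the smaller number of large windows did not. The libraries without UV were more clustered than their UV counterparts when all were cut to 66644 events, with 8.26% for WT and 4.97% for mutZn against 6.67%, 4.75% and 3.92% for WT and 2.95% and 3.15% for mutZn with UV.

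**Figure D4:**
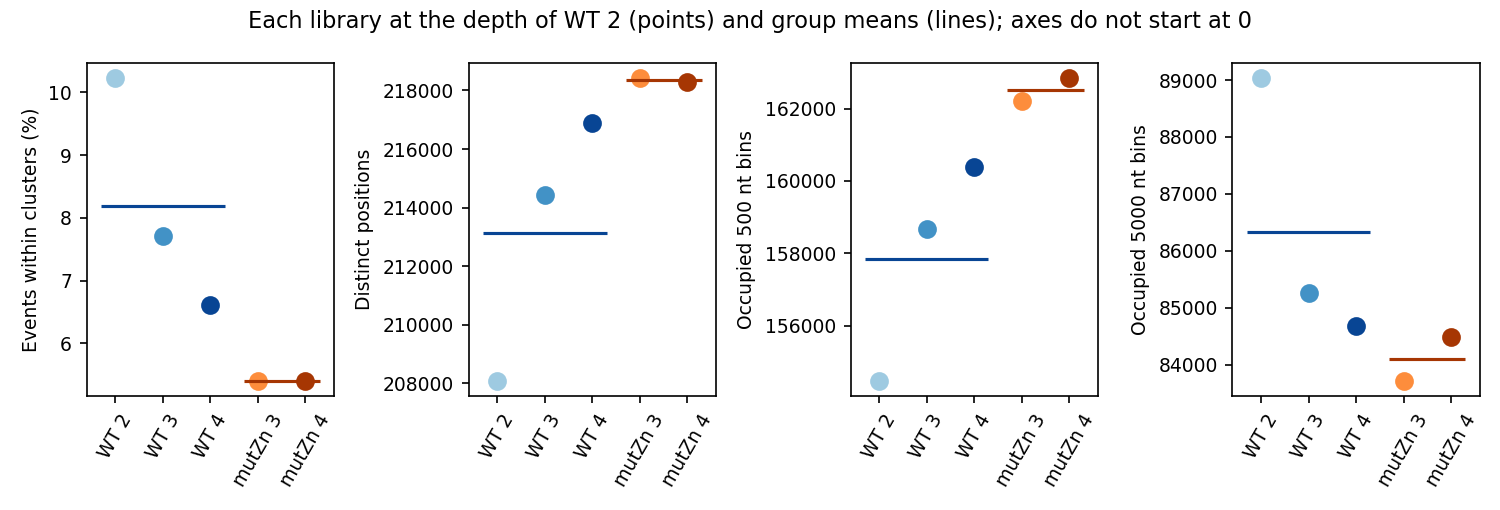
Events within clusters (percent), distinct positions, occupied 500 nt bins and occupied 5000 nt bins of each library at 221521 events (points) with group means (lines), on axes that do not start at 0. The mutZn libraries lie below WT in clusters and above WT in positions and 500 nt bins, and WT 2 stands farthest from mutZn in all 4 plots.

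The spacing of positions showed the same difference without weighting by event number. With each position counted once, the number of other positions at a given distance on the strand was divided by its mean over the 20 nt from 100 nt on. At the depth of WT 3 this relative density at 1 nt was 2.89 and 2.50 in WT 3 and 4 and 2.24 and 2.21 in mutZn 3 and 4. At 10 nt it was 1.61 and 1.58 against 1.45 and 1.44, and at 50 nt 1.18 and 1.17 against 1.13 and 1.12. At 5, 10, 20, 30 and 50 nt WT 3 and WT 4 differed by at most 0.026. At these distances WT 4 exceeded mutZn 4 by 0.048 to 0.17. They do not hold the widest gap within WT or the narrowest gap to mutZn from 5 nt on. At 6 nt the densities were 1.76 and 1.71 in WT 3 and 4 and 1.54 and 1.52 in mutZn 3 and 4. At 57 nt they were 1.15 and 1.14 against 1.11 and 1.10. Between libraries at the depth of WT 3 the density at 10 nt was 1.59 for WT 3 with WT 4, 1.43 for the mutZn pair and 1.45 to 1.48 across genotypes. At full depth, which is not matched, it was 1.56 to 1.58 for pairs of WT libraries, 1.37 for the mutZn pair and 1.41 to 1.45 across genotypes. These are descriptions of 4 and 5 libraries, and the positions share sites and base composition.

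**Figure D5:**
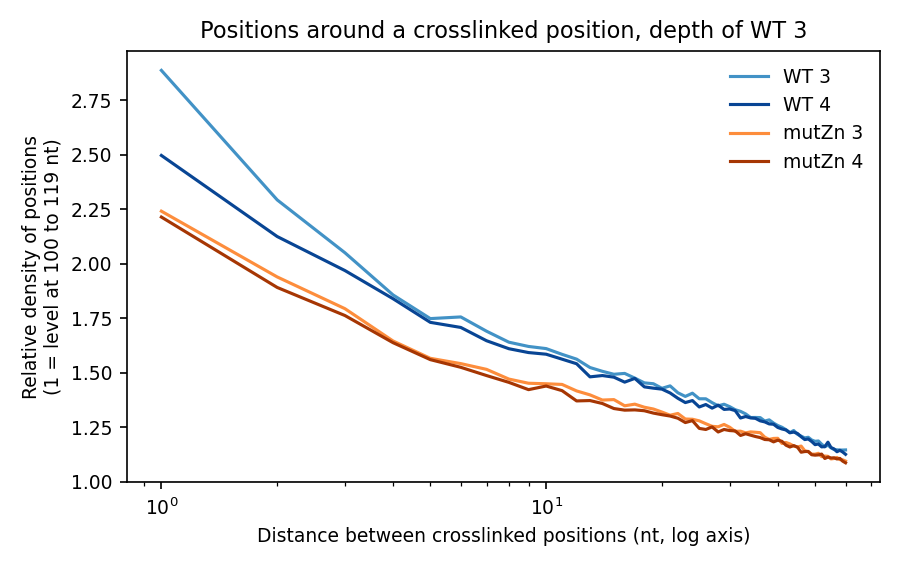
Relative density of positions (1 is the mean over the 20 nt from 100 nt on) against the distance between positions in nt (log axis) for WT 3, WT 4, mutZn 3 and mutZn 4 at the depth of WT 3. The WT lines lie above the mutZn lines at all distances shown, with 1.61 and 1.58 against 1.45 and 1.44 at 10 nt.

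Within well-filled bins the placement of events differed little. In 564 bins of 500 nt drawn to 40 events in each library, the overlap of 2 libraries over 10 nt steps averaged 57.8% for WT 3 with WT 4, 58.1% for the mutZn pair and 56.7% for WT 4 with mutZn 4. Over single nucleotides it was 26.0%, 25.6% and 25.1%, and over 100 nt steps 85.9%, 85.9% and 84.6%. From the mean of the pairs within a genotype to the run-matched pair across it, the overlap was 0.76 points lower at 1 nt, 1.34 at 10 nt and 1.26 at 100 nt. The most used position of a bin held 10.3% and 9.66% of events in WT 3 and 4 and 9.26% and 9.02% in mutZn. Events per 500 nt bin differed beyond sampling noise in all of these pairs, with a chi-square per bin of 11.9 for WT 4 with mutZn 4 (6345 bins), 2.71 for WT 3 with WT 4 (1753) and 1.28 for the mutZn pair (18422). It was 37.1 for WT 2 with WT 3 (167 bins) and 13.7 for WT 2 with WT 4 (1222), above the value of the run-matched pair. Across genotypes it ran from 6.18 (WT 3 with mutZn 3) to 14.6 (WT 2 with mutZn 4). The pairs differ in depth and each was read in its own bins of at least 100 events, so these values are not on 1 scale.

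Along long stretches the mutZn events lay slightly farther towards the 3′ end and in more bins. In 551 stretches with at least 50 events in every library, the median share of events in the last 20% of the length was 15.8%, 15.9% and 16.2% in WT and 16.8% and 16.8% in mutZn. The share in the first 20% was 18.8%, 19.7% and 19.2% against 18.8% and 18.7%. At equal depth the share of 500 nt bins with an event was 21.7%, 23.5% and 23.4% against 24.0% and 23.9%. The differences were 0.82, -0.52 and 1.05 points, each at the smallest exact permutation p this design allows (0.20). The difference in the first 20% was -0.18 with each position counted once, where the groups overlapped (exact permutation p = 0.80), and 0.018 in the 319 stretches of at least 100000 nt. By stretch, both mutZn libraries lay above all WT libraries in the last 20% in 26.7% and below in 14.2%, and in the first 20% above in 16.0% and below in 23.2%. In occupied bins 39.0% lay above and 4.90% below. The stretches were drawn from summed events, most of which came from mutZn, and the part of this choice in the result was not tested.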

How the data were processed

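The 5 libraries were grouped by their titles. Per the file headers, the score the authors deposited for each position is its number of cDNAs on mm9, signed by strand. The submitters' processing notes name CASAVA 1.4. How reads were aligned and duplicates removed is not given in the sources used here. Absolute scores on the 22 main chromosomes were summed per strand in bins, at positions and in stretches with Python 3.11.15, numpy 2.4.6 and pandas 2.3.3.

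Because the scores carry a sign, the planned package test was replaced by a negative binomial quasi-likelihood F test written in R 4.3.3, with variances moderated by limma 3.58.1 and Benjamini-Hochberg adjustment at 0.05. It gave every adjusted p in the text. Its trial on simulated events used 1 dispersion for all bins and libraries, in bins that had already passed the filter. That trial does not cover the filter or the spread seen between the WT libraries. A feature was tested when it reached the level of 10 events at the median library total in at least 2 libraries and 15 events in all. Scaling factors were a trimmed mean of log ratios over 8191 windows of 5000 nt with at least 20 CPM on average (0.978 to 1.011). CPM uses library totals on the main chromosomes. Ratios within a pair and counts by position are unscaled beyond that. The 2-fold shares of the pair, their second reading and the median ratios of called features had 0.5 events added to each count. Exact permutation tests over libraries used scipy 1.17.1, and figures matplotlib 3.10.9.

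Called features with 20 or more events per library on average and no overlap of the groups were ranked by log2 fold change, and the first 6 in each direction were named, with the 5 most used positions of each genotype, and the stretches with the most events. The members, lists and tests were chosen with earlier results of these data known. Gene lists and cell type markers were not used, since no mm9 annotation was used here, and 1 chromosome's named features are not reported here. Replicates with the same number in their titles did not deviate together (correlation -0.024 over 9422 bins, 2 pairs), so groups were compared unpaired. The file headers number them otherwise, so this check and the replicate block rest on the titles. Alternatives are given with the closing observations.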

Additional observations from a re-analysis of the deposited data

How the results depend on the processing

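Counts of calls moved with many settings, and under several of them the number of features tested moved too. In 500 nt bins limma-voom called 16375 bins and the sequencing run as a term 4477, both of 94826 tested. No level filter called 3683 of 841420, the D27aa libraries in the fit 3524 of 12546 and bins without a no-UV event 3275 of 56650. The libraries of the shared run alone gave 1 (9422 at an unadjusted p under 0.05), and leaving out 1 library 302 to 7905. In 100 nt bins limma-voom called 11204, each position counted once 3772 and the run as a term 2993, with 104 to 6889 on leaving out 1 library. At single nucleotides the run as a term called 635, the equally weighted filter 712 and WT 3 and WT 4 as 1 library 650, with 60 to 1600 on leaving out 1 library. In stretches limma-voom called 885, with 511 to 1705 on leaving out 1 library. Thinned to the shallowest library, the quasi-likelihood test called 0 of 583 bins of 500 nt (80 at an unadjusted p under 0.05), 0 of 332 bins of 100 nt (44) and 1 of 18 positions. The filter and the merging of WT 3 and WT 4 were chosen after seeing the data. Except where the count was 0, lower calls outnumbered higher calls in bins and positions under each setting, and higher calls did so in stretches. The lower share of calls was 70.4% in 500 nt bins and 93.6% in 100 nt bins with each position counted once, 68.4% in 500 nt bins without WT 4 and 52.4% without WT 3, 54.6% there with the run as a term, and 57.8% in 100 nt bins and 76.7% at single nucleotides without WT 3.

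The replicate numbers of the titles do not pair the libraries by the check above. A fit with the replicate block called 4099 bins of 500 nt, 3539 bins of 100 nt, 1784 positions and 1590 stretches.

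Of the spread measures, occupied bins of 5000 nt turned to -2224 and the share in the first 20% to 0.018 points in stretches of at least 100000 nt. On leaving out 1 library the differences ranged from -3.57 to -1.76 points for clusters, -1.71 to -0.62 for the top positions, 2680 to 7093 distinct positions, -0.72 to -0.30 for the first 20%, 0.74 to 0.96 for the last 20% and 0.47 to 1.36 for occupied bins. Of the named features, 15 of 167 values in 500 nt bins, 12 of 135 in 100 nt bins and 28 of 120 at positions lost the call with the same direction. In stretches 21 of 176 lost it, 9 gained it and 6 turned. The turned values were chr7:67084501-67157500 at -0.61 and chrX:148235001-148374500 at -0.065 with each position counted once, and chr2:68042501-68311000 at -0.0052 with plain totals, -0.024 with the replicate block, -0.019 with the run as a term, and -0.030 without WT 2 (-0.030 to 0.10 on leaving out 1 library). The cause of these changes was not tested.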
